A study of Mus musculus with 4 samples.

Results

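Krüppel-like factors (KLFs) were examined in peritoneal macrophages from mice on a high-fat diet and on a control diet. The 10 members are the genes Klf2, Klf3, Klf4, Klf6, Klf7, Klf9, Klf10, Klf11, Klf13 and Klf16. They were found by symbol in the count tables, 1 row each, among 24625 gene models. All 10 passed the filter on low counts, as did 12747 genes in all. The mice were C57BL/6J (the samples themselves carry the label C57BL/6) and were fed for 12 weeks, either a high-fat diet that gave 60% of its energy as fat or standard chow. All of them, controls included, received 3% thioglycollate medium in the peritoneal cavity 4 days before the cells were collected, so both groups are elicited macrophages drawn in by an irritant and not the resident population. Each diet has 2 libraries of total RNA depleted of ribosomal RNA. Sex, age and any pooling of the mice are unlabelled, so the p-values measure only the spread between these libraries, which may be technical.

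KLFs are zinc finger transcription factors. Their fingers at the C-terminal end recognise GC-rich and CACCC-type DNA, which the related SP factors also bind, while the remainder of each protein differs and decides which cofactor is recruited. Klf2, Klf4, Klf6 and Klf7 act largely as activators, Klf3 recruits the corepressor CtBP, and Klf9, Klf10, Klf11, Klf13 and Klf16 recruit the SIN3 corepressor complex. In myeloid cells Klf4 is known for monocyte differentiation and alternative activation, Klf2 for restraint of inflammatory genes, and Klf6 for support of NF-kB-driven genes.

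The genes' own promoters were searched for elements that KLF and SP proteins bind. Of these promoters, 4 are shown because they span the patterns found below. Klf4 and Klf11 had higher values with the high-fat diet, Klf13 had lower values, and Klf2 varied between the high-fat libraries. RefSeq promoter windows (GRCm38.p6, 250 bases before to 50 bases after the start) were matched for 8 of 10 members; Klf10 and Klf16 are not among them. The windows shown are chr8:72318812-72319111 (plus strand), chr4:55532426-55532725 (minus strand), chr12:24651121-24651420 (plus strand) and chr7:63938866-63939165 (minus strand), each 300 bases and printed 5′ to 3′ on the strand of the gene. Capitals mark CACCC and CCGCCC on either strand and, in Klf2, a match to the MEF2 consensus.
Klf2: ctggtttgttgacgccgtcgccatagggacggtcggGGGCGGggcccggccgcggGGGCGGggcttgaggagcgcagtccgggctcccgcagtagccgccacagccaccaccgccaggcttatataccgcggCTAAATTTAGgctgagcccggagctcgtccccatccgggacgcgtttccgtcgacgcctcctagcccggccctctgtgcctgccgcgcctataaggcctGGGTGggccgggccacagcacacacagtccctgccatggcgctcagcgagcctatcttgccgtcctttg
Klf4: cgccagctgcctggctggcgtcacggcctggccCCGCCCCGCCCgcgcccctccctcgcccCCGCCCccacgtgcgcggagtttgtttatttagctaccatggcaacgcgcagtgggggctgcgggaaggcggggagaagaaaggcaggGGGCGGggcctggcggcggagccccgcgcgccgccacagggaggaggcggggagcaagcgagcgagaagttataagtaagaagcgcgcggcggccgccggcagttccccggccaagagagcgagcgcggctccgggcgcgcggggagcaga
Klf11: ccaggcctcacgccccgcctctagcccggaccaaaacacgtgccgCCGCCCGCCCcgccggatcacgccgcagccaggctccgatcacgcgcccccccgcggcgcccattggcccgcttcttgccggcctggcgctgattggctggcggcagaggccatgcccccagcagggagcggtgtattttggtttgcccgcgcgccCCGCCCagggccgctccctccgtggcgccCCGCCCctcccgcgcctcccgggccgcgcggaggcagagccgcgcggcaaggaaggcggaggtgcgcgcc
Klf13: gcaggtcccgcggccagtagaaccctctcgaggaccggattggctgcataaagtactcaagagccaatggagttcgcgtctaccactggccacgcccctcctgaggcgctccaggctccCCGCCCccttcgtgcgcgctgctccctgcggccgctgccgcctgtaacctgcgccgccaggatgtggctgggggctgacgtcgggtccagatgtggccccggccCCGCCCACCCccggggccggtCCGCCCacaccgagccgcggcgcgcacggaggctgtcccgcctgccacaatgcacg
Matches to CCGCCC numbered 2 in Klf2, 4 in Klf4, 4 in Klf11 and 3 in Klf13, and neighbouring copies may share a base. CACCC occurred 1 time in Klf2 and 1 time in Klf13, where it overlaps a CCGCCC, and 0 times in Klf4 and Klf11. Among the other members, Klf3 had the most of both, with 5 CACCC and 6 CCGCCC matches, while Klf6 held no CACCC and Klf9 no CCGCCC. The share of G and C bases, on which such matches depend, ran from 58.3% in Klf7 to 77.7% in Klf11. Of all 32851 promoter windows in the table, 57.5% held a CACCC, 35.7% a CCGCCC and 3.19% a MEF2 consensus match. The MEF2 match begins 118 bases before the start of Klf2 and was the only one in the 8 windows. MEF2 factors, switched on by the kinase ERK5, are known inducers of Klf2. These are matches of letters, and no binding was measured.

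Library depth was similar in both diets. Counts on genes were 45658551 and 40527591 in the high-fat libraries and 39846646 and 39347347 in the control libraries. Levels below are CPM, a gene's count scaled to the TMM-adjusted total of its library. The macrophage label was checked with 8 macrophage markers, which summed to 19702 and 24104 CPM with the high-fat diet and 26490 and 25392 CPM with the control diet, and none was at 0 counts. Of these, 7 of 8 were below 0, with a median log2 fold change of -0.22. Lyz2, the lysozyme gene, made up most of that at 16399 and 20995 CPM with the high-fat diet and 22930 and 22094 CPM with the control diet. Other cell types were present at low levels and differed between libraries: 11 mesothelial and fibroblast markers summed to 172 and 85.0 CPM with the high-fat diet and 20.6 and 27.8 CPM with the control diet, 8 of 8 kept members were above 0 in log2 fold change, and none was at 0 counts throughout. Of 11 neutrophil markers, of which Elane was at 0 counts, the sums were 52.7 and 47.3 CPM with the high-fat diet and 69.5 and 75.7 CPM with the control diet, and 7 of 7 kept members were below 0. Several kept members of both lists passed the filter on 1 diet alone, such as Lum, with 83 and 47 counts with the high-fat diet and 8 and 9 with the control diet, and Retnlg, with 2 and 4 counts with the high-fat diet and 21 and 74 with the control diet, so the filter favours their direction. The 6 dendritic cell markers summed to 3.83 and 4.33 CPM with the high-fat diet and 10.8 and 11.3 CPM with the control diet. Of these, 6 of 6 were below 0, with a median log2 fold change of -1.87. The 8 eosinophil and mast cell markers summed to 64.1 and 81.1 CPM with the high-fat diet and 81.5 and 70.6 CPM with the control diet. Of 6 kept, 3 were above 0 and 3 below, and 0 higher and 2 lower had an unadjusted p under 0.05 (edgeR). Among all markers edgeR called 4, the macrophage receptor Mertk (log2 fold change -0.69, adjusted p = 0.0449), the neutrophil receptor Csf3r (-0.69, 0.0476), the dendritic lectin Cd209a (-2.34, 0.0161) and the matrix gene Lum (2.77, 0.0310). None of the 4 passed when control replicate 1 (adjusted p from 0.116 to 0.204) or control replicate 2 (0.0860 to 0.149) was left out. DESeq2 called 2 macrophage, 3 neutrophil, 5 mesothelial and fibroblast, 2 dendritic and 2 eosinophil and mast cell markers, and limma-voom called 1 in the mesothelial and fibroblast list and 1 in the dendritic list. Over all genes tested, edgeR called 0.612%, DESeq2 2.93% and limma-voom 0.220%. The part of these markers in the KLF values was not tested. In bulk RNA, fewer cells of a type and less RNA per cell cannot be told apart.

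Klf6 dominated the family. Per kilobase of exon its level was 149 and 160 CPM per kb in the high-fat libraries and 141 and 141 CPM per kb in the control libraries, higher than 96.1% of kept genes on the same scale. Klf6 alone made up 74.1% and 75.2% of the summed KLF level per kb with the high-fat diet, and 74.7% and 75.6% with the control diet. Klf10 came next at 25.2 and 24.6 CPM per kb with the high-fat diet and 18.9 and 18.4 CPM per kb with the control diet. Neither Klf6 and Klf10, nor Klf10 and Klf9, overlapped in any of the 4 libraries. Averaged over the libraries, Klf6 stood 6.78 times above Klf10, and Klf10 3.54 times above Klf9.

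The other 8 members were far lower. Klf9 (mean over 4 libraries 6.14 CPM per kb), Klf3 (5.78), Klf7 (4.51) and Klf13 (4.21) formed a middle group in which the ranges of each pair of neighbours overlapped. A gap separated Klf13 from the low group of Klf11 (2.1), Klf2 (1.89), Klf16 (1.56) and Klf4 (1.54), whose neighbours overlapped as well. Levels of the low group lay between the 29.8th percentile of kept genes, for Klf4, and the 34.0th, for Klf11. The gene model of Klf7 spans 1334 exon bases against 6396 for Klf13, so the order within the middle group depends on how completely the models cover each transcript.

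**Figure D1:**
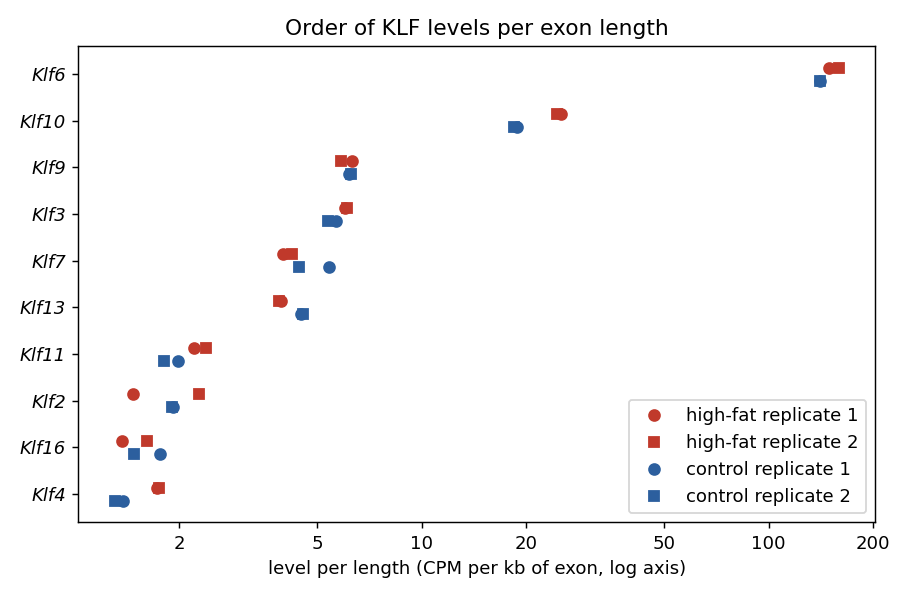
Level per exon length (CPM per kb, log axis) of each KLF gene in each library, ordered by the mean; red points are high-fat libraries, blue points control libraries, circles replicate 1 and squares replicate 2. Klf6 and Klf10 stand apart above 8 genes that lie between 1.30 and 6.28 CPM per kb.

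The diet comparison asks whether KLF transcripts differ between macrophages of the 2 diets. No member passed an adjusted p of 0.05 over all kept genes (edgeR quasi-likelihood test, Benjamini-Hochberg), and 1 of 10, Klf10, had an unadjusted p under 0.05. Across all kept genes 0.612% passed (78 genes) and 17.0% had an unadjusted p under 0.05. DESeq2 called 1 member, Klf10, against 2.93% of its genes, and limma-voom called 0, against 0.220%. Both high-fat libraries lay above both control libraries for 5 members, Klf3, Klf4, Klf6, Klf10 and Klf11, where 26.1% of all kept genes did so, and below for 2 members, Klf7 and Klf13, where 24.9% did. In Klf2, Klf9 and Klf16 the diets overlapped. The median log2 fold change, high-fat over control, was 0.050 over the members and -0.0054 over all kept genes, and 5 members were above 0 and 5 below, where 49.2% of all kept genes were above. An unadjusted p under 0.05 was found for 8.56% of all kept genes on the higher side and 8.46% on the lower side, the background for the lists described below.

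**Figure D2:**
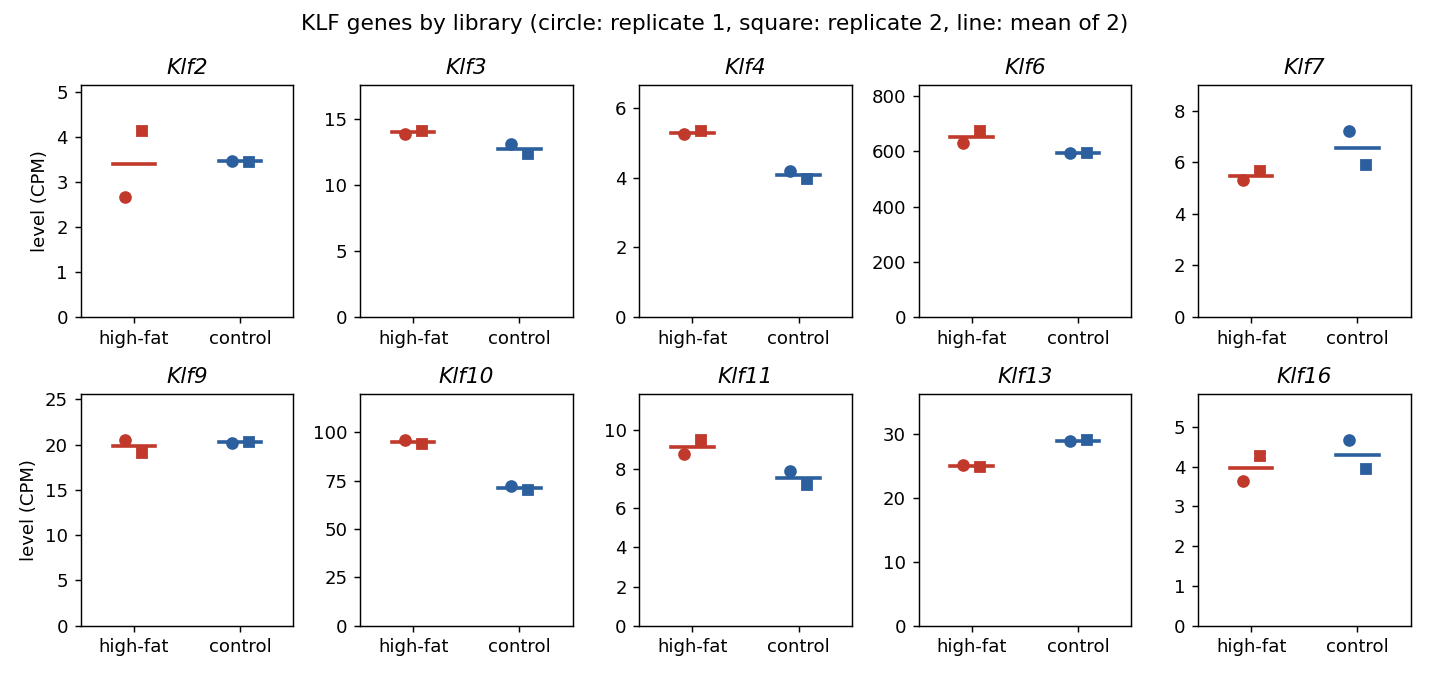
Level (CPM) of each KLF gene in the high-fat libraries (red, left) and the control libraries (blue, right); circles are replicate 1, squares replicate 2 and lines the mean of 2 libraries, with each panel's axis starting at 0. In Klf10 the high-fat libraries sit at 96.0 and 94.0 CPM, above the control libraries at 72.0 and 70.4 CPM, and in Klf2 the high-fat libraries lie on either side of the controls.

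Among the repressors that bind SIN3, Klf10 differed most. Klf10, also called TGF-beta-inducible early gene, is on mm9 chromosome 15, 38221219 to 38230466, minus strand, with 5 merged exon blocks. Its counts were 4458 and 3754 in the high-fat libraries and 2899 and 2731 in the control libraries. In CPM it stood at 96.0 and 94.0 with the high-fat diet and at 72.0 and 70.4 with the control diet, so replicates were close and the diets did not overlap. The means were 95 ± 1.47 and 71.2 ± 1.18 CPM (SD, n = 2 per diet), the log2 fold change was 0.42 ± 0.09 (SE; 95% interval 0.21 to 0.62, unadjusted for the number of genes), and the adjusted p was 0.0757 (edgeR quasi-likelihood test). This is a 1.33-fold higher level that missed the threshold; 199 kept genes had a smaller p.

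The call of Klf10 depended on the test and on the filter on low counts, while the size of its difference changed little. Its log2 fold change ran from 0.40 to 0.43 over the 13 alternatives. The adjusted p was 0.0183 by DESeq2 and 0.0198 in edgeR with no filter on low counts, where 3.00% of genes were called. With a replicate block, 0 members were called against 0.886% of genes. The adjusted p of Klf10 was above 0.05 in the other 11 alternatives, up to 0.259 without control replicate 1. Leaving out control replicate 2, high-fat replicate 1 or high-fat replicate 2 gave 0.170, 0.0778 and 0.0823 (edgeR adjusted p).

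**Figure D3:**
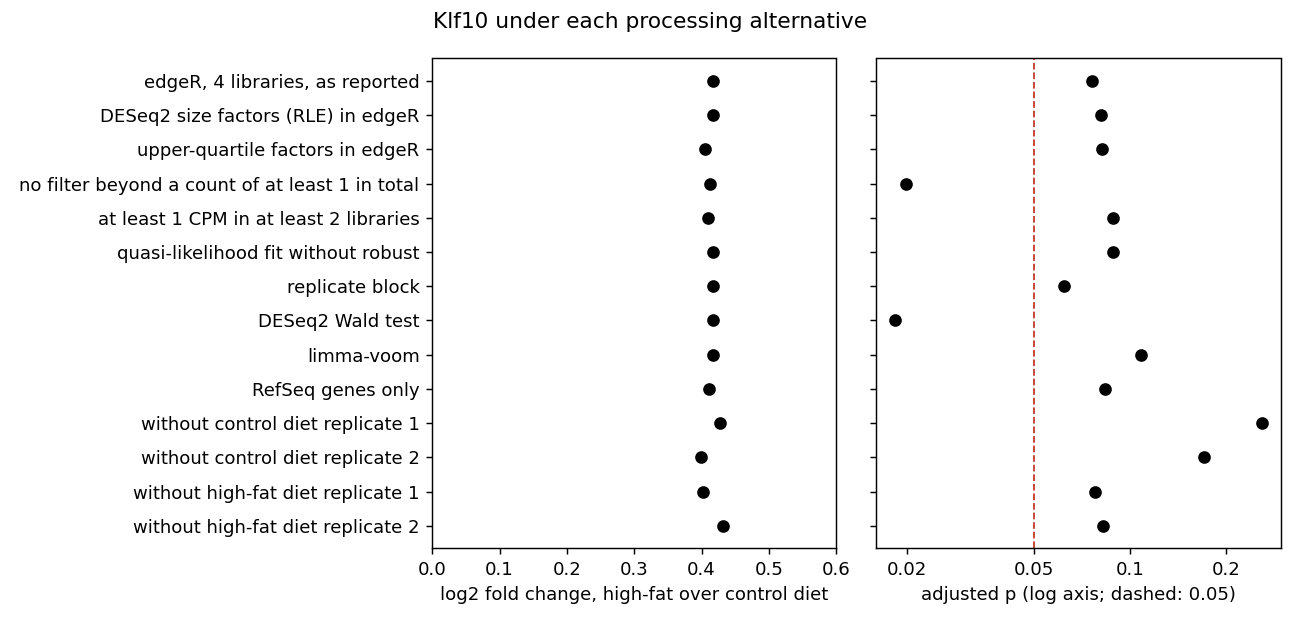
Log2 fold change of Klf10, high-fat over control (left panel), and its adjusted p on a log axis (right panel) for the fit as reported and the 13 processing alternatives; the dashed line is 0.05. The fold change stays between 0.40 and 0.43 while the adjusted p ranges from 0.0183 to 0.259.

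Klf11, the paralogue of Klf10 that was also described as TGF-beta-inducible, is on mm9 chromosome 12, 25336236 to 25347647, plus strand. It had 8.77 and 9.49 CPM with the high-fat diet and 7.92 and 7.21 CPM with the control diet. The high-fat libraries were the higher ones without overlap, and the log2 fold change was 0.27 ± 0.15 (SE; 95% interval -0.08 to 0.61; edgeR adjusted p = 0.398). Klf13, known in T lymphocytes as an activator of Ccl5, is on mm9 chromosome 7, 71031237 to 71083801, minus strand, and went the other way. It had 25.2 and 24.8 CPM with the high-fat diet and 28.8 and 29.0 CPM with the control diet. The replicates of each diet were close, and the log2 fold change was -0.21 ± 0.11 (SE; 95% interval -0.45 to 0.03; edgeR adjusted p = 0.356).

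The remaining SIN3-binding members showed no separation of the diets. Klf9, a gene induced by glucocorticoids, had 20.5 and 19.1 CPM with the high-fat diet and 20.2 and 20.4 CPM with the control diet. Its 95% interval on the log2 scale was -0.30 to 0.24 (edgeR), the narrowest among the 3 members whose diets overlapped. Klf16, a repressor first described for dopamine receptor genes, had 3.64 and 4.28 CPM with the high-fat diet and 4.67 and 3.94 CPM with the control diet, and its 95% interval of -0.58 to 0.33 spans differences of either sign. Its counts were 169 and 171 with the high-fat diet and 188 and 153 with the control diet.

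Among the activators, Klf4 had a fold close to that of Klf10 at a far lower depth. Klf4, on mm9 chromosome 4, 55540009 to 55545347, minus strand, had counts of 244 and 213 with the high-fat diet and 169 and 154 with the control diet. These are 5.26 and 5.33 CPM with the high-fat diet against 4.20 and 3.97 CPM with the control diet. The diets did not overlap and the replicates were close, with a log2 fold change of 0.37 ± 0.18 (SE; 95% interval -0.03 to 0.78; edgeR adjusted p = 0.324). It kept a value between 0.33 and 0.41 in all 13 alternatives and was called in none.

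Klf6, on mm9 chromosome 13, 5860735 to 5869639, plus strand, had 630 and 673 CPM with the high-fat diet and 593 and 595 CPM with the control diet. Both high-fat libraries were higher, by a log2 fold change of 0.13 ± 0.10 (SE; 95% interval -0.10 to 0.37; edgeR adjusted p = 0.535). With 23100 counts or more in each library its precision is set by the spread between libraries and not by depth. Klf7, an activator best known from neurons, had 5.32 and 5.66 CPM with the high-fat diet and 7.20 and 5.90 CPM with the control diet. The high-fat libraries were lower without overlap, but the gap between the control libraries was 0.29 on the log2 scale, larger than the diet difference of -0.26 (95% interval -0.66 to 0.14; edgeR adjusted p = 0.487). Without control replicate 1 the log2 fold change of Klf7 was -0.11.

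Klf2 was the member whose replicates differed most. It had 2.67 and 4.13 CPM in the high-fat libraries and 3.48 and 3.45 CPM in the control libraries. High-fat replicate 1 was the lowest and high-fat replicate 2 the highest of the 4 libraries, and the gap between them, 0.63 on the log2 scale, was larger than in any other member. The exact Poisson 95% intervals of these counts, which cover counting error only, were 2.22 to 3.18 CPM in high-fat replicate 1 and 3.52 to 4.81 CPM in high-fat replicate 2, and did not overlap. The log2 fold change was -0.03 ± 0.25 (SE; 95% interval -0.59 to 0.53; edgeR adjusted p = 0.958). Leaving out high-fat replicate 1 gave 0.25, and leaving out replicate 2 of that diet gave -0.38.

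Lymphocyte transcripts differed between the same libraries. Klf2 is abundant in resting T and B cells, where it maintains the homing gene S1pr1 (a sphingosine-1-phosphate receptor). The 8 T and NK cell markers summed to 3.12 and 18.1 CPM in high-fat replicates 1 and 2 and to 4.27 and 4.87 CPM in the control libraries. The 7 B cell markers summed to 108 and 197 CPM with the high-fat diet and 121 and 111 CPM with the control diet. S1pr1 had 19.8 and 31.6 CPM with the high-fat diet and 17.7 and 15.3 CPM with the control diet. High-fat replicate 2 was the highest library for Klf2, S1pr1 and both marker sums, and also for Klf3, Klf4, Klf6 and Klf11. In high-fat replicate 1, where Klf2 and both marker sums were lowest, S1pr1 still lay above both control libraries. Of the marker genes, 5 of 7 kept T and NK genes and 6 of 7 B cell genes were above 0 in log2 fold change. Across all kept genes 49.2% were above 0. In each of these lists 0 genes on the higher side and 1 on the lower side had an unadjusted p under 0.05 (edgeR). The diets did not overlap in 1 gene on each side per list. No list member was at 0 counts throughout. The part of lymphocyte transcripts in the Klf2 values was not tested. Klf2 and Klf4 are also prominent in endothelium, whose 8 markers summed to 38.3 and 32.8 CPM with the high-fat diet and 48.5 and 36.2 CPM with the control diet. Against the direction of the sum, 3 of 4 kept endothelial markers were above 0, with a median log2 fold change of 0.21. Emcn was at 0 counts and Cdh5 at 0.28 and 0.33 CPM with the high-fat diet and 0.30 and 0.23 CPM with the control diet.

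Klf3, the CtBP-recruiting repressor, had 13.9 and 14.1 CPM with the high-fat diet and 13.1 and 12.4 CPM with the control diet. The high-fat libraries were higher without overlap, by a log2 fold change of 0.13 ± 0.13 (SE; 95% interval -0.16 to 0.43; edgeR adjusted p = 0.620). Klf3 is on mm9 chromosome 5, 65194762 to 65221368, plus strand. None of the 10 members shares exon bases with another gene model in the authors' annotation, on either strand.

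**Figure D4:**
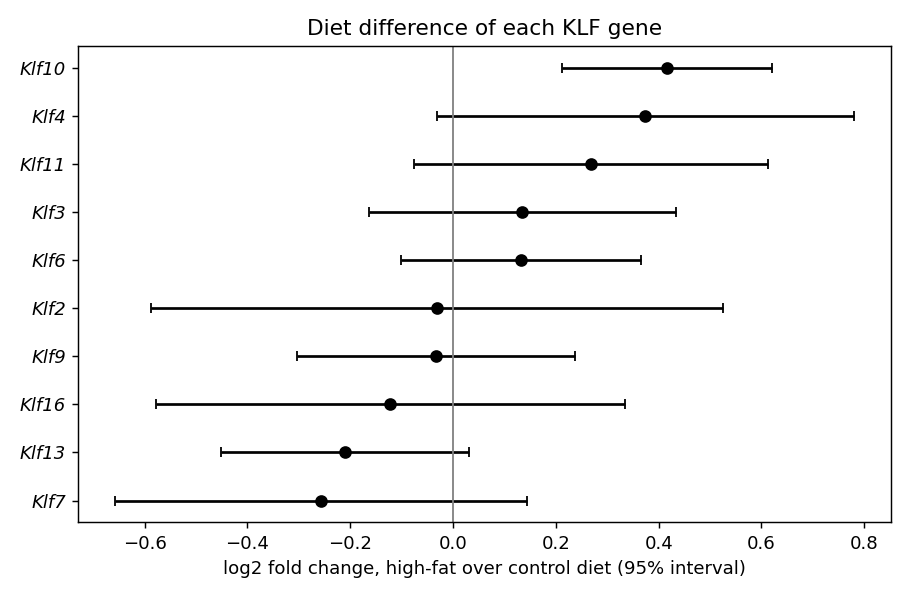
Log2 fold change, high-fat over control diet, of each KLF gene with its 95% interval from the edgeR quasi-likelihood fit, unadjusted for the number of genes tested. The interval of Klf10, 0.21 to 0.62, lies above 0 and those of the other 9 genes include 0; Klf2 has the widest, -0.59 to 0.53.

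Summed over the 10 members, KLF transcripts came to 811 and 854 CPM with the high-fat diet and 755 and 752 CPM with the control diet. Without Klf6 the sum was 181 and 181 CPM with the high-fat diet and 162 and 157 CPM with the control diet. The share of Klf10 in the summed level per kb was 12.5% and 11.6% with the high-fat diet and 10.02% and 9.88% with the control diet. The ratio of Klf4 to Klf2 per kb was 1.17 and 0.770 with the high-fat diet and 0.720 and 0.686 with the control diet; both high-fat values were higher, and they differed from each other by more than the control values did. These sums and ratios were not tested.

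The 3 protein-coding genes whose pattern over the 4 libraries was nearest to that of Klf10 were Nup35, a nuclear pore protein, Akr1b8, an aldo-keto reductase, and Ndc1, a nuclear pore membrane protein. Nearness was the root mean square difference in log2 CPM centred on each gene's mean, and came to 0.021, 0.022 and 0.022 among 11626 genes. Nup35 had 24.7 and 24.9 CPM with the high-fat diet and 19.0 and 18.8 CPM with the control diet. With 4 libraries many genes can lie this near.

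The rest of the family was mostly silent. Of 16 other KLF and SP genes, 5 were kept, 2 above 0 and 3 below, with a median log2 fold change of -0.03. Klf8, a CtBP-binding repressor chosen after its values were seen, was the only further KLF kept, at 13.3 and 13.7 CPM with the high-fat diet and 13.0 and 13.6 CPM with the control diet. Klf12 had 8 and 8 counts with the high-fat diet and 3 and 1 with the control diet, and Klf14 had 0 counts in all 4 libraries. The SP genes of smallest p were Sp4, Sp2 and Sp3, at log2 fold changes of -0.13, -0.33 and 0.09. Sp1 and Sp3, broadly expressed factors that share GC boxes with the KLFs, averaged 151 and 227 CPM with the high-fat diet and 153 and 214 CPM with the control diet. The Sp3 model shares 109 exon bases with another gene model. edgeR, DESeq2 and limma-voom called 0 genes of this list, and 0 had an unadjusted p under 0.05.

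Partners of KLF proteins gave no edgeR calls. Of 13 cofactors, 4 were above 0 and 9 below, with a median log2 fold change of -0.08; 0 were called by edgeR, DESeq2 or limma-voom, and 1 higher and 3 lower had an unadjusted p under 0.05. The SIN3 scaffold Sin3b had 62.8 and 57.8 CPM with the high-fat diet and 72.8 and 77.2 CPM with the control diet (log2 fold change -0.31, edgeR adjusted p = 0.169). The deacetylase Hdac2 was at 0.31 and the acetyltransferase Ep300 at -0.25. Of 7 ubiquitin ligases that act on KLF proteins, Wwp1, which targets KLF2, had the smallest p, with 232 and 238 CPM with the high-fat diet and 147 and 172 CPM with the control diet. Its log2 fold change was 0.56 ± 0.11 (SE), and the adjusted p was 0.0573 by edgeR and 0.000782 by DESeq2, which called this 1 member of the list; limma-voom called 0. Fbxw7 and Siah1a were at -0.13 and 0.14, and both share exon bases with another gene model. The list's median was -0.02.

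The ERK5 and MEF2 list and the glucocorticoid list together gave 1 call by edgeR, 2 by DESeq2 and 0 by limma-voom. Of 8 genes of the ERK5 and MEF2 route, 2 were above 0 and 6 below, with a median log2 fold change of -0.06; 0 were called by edgeR, DESeq2 or limma-voom and 0 had an unadjusted p under 0.05. Its genes of smallest p, the kinase Map3k3 and the factors Mef2d and Mef2a, were at -0.21, -0.20 and 0.09. Of 9 glucocorticoid-induced genes, 1 rose, the EGF receptor inhibitor Errfi1, with 26.5 and 29.2 CPM with the high-fat diet and 17.8 and 16.0 CPM with the control diet (log2 fold change 0.72 ± 0.12, SE; edgeR adjusted p = 0.0456). Without control replicates 1 and 2 in turn its adjusted p was 0.130 and 0.153, and without high-fat replicates 1 and 2 it was 0.00126 and 0.0219. It was 0.0717 by limma-voom, 0.0546 without robust fitting, 0.0519 with a filter at 1 CPM and 0.0515 with a replicate block. The phosphatase Dusp1 was at 0.44 and the kinase Sgk1 at -0.39, so the list, with 5 above 0, 4 below and a median of 0.03, had members in both directions. On each side 2 had an unadjusted p under 0.05; DESeq2 called 2 of the list, Errfi1 and Sgk1, and limma-voom 0.

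Of 11 TGF-beta genes, 6 were above 0 and 5 below, with a median log2 fold change of 0.08; 0 were called by edgeR, DESeq2 or limma-voom and 1 had an unadjusted p under 0.05. The ligand Tgfb1 had 9.41 and 10.1 CPM with the high-fat diet and 15.7 and 12.9 CPM with the control diet, a log2 fold change of -0.55 ± 0.15 (SE; edgeR adjusted p = 0.139). Klf10 and Klf11, which TGF-beta can induce, lay above 0, and the part of TGF-beta in their values was not tested. The repressor Tgif1 was at -0.15. Of 16 kept clock genes, 6 were above 0 and 10 below, with a median of -0.17; edgeR and limma-voom called 0, DESeq2 called 1, Bhlhe41, and 2 had an unadjusted p under 0.05. Bhlhe41, a repressor of the clock loop, had 68.7 and 77.1 CPM with the high-fat diet and 103 and 104 CPM with the control diet (-0.50; edgeR adjusted p = 0.0602), with Npas2 at -0.70 and Per1 at -0.40.

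Genes described as targets of KLF2 and KLF4 gave no calls. Of 9 induced genes, 5 were above 0 and 4 below, with a median log2 fold change of 0.09; besides S1pr1 (0.64, edgeR adjusted p = 0.216), the chitinase-like gene Chil3 was at -0.34 and the nuclear receptor Pparg at -0.26. Of 8 inflammatory genes that these factors restrain, 7 were kept. All 7 were above 0, with a median of 0.18, and 2, Il6 and Ptgs2, had an unadjusted p under 0.05. Only in these 2 did both high-fat libraries lie above both control libraries, as for 26.1% of all kept genes. In the other kept genes of the list the diets overlapped. Nos2 was not kept, with 2 and 0 counts with the high-fat diet and 5 and 1 with the control diet. The cytokine Il6 passed the filter on 21 and 37 counts with the high-fat diet and 5 and 5 with the control diet, so the filter favours a higher value there (log2 fold change 2.41, edgeR adjusted p = 0.0898). Ptgs2, the inducible cyclooxygenase, had 8.83 and 11.6 CPM with the high-fat diet and 6.61 and 5.64 CPM with the control diet (0.73, edgeR adjusted p = 0.109), and Tnf was at 0.18. In both lists edgeR, DESeq2 and limma-voom called 0 genes, and in the induced list 1 higher and 1 lower had an unadjusted p under 0.05.

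Several KLFs, Klf2, Klf4, Klf6 and Klf10 among them, respond within minutes to hours to serum, cytokines or cell handling, as immediate-early genes do. Of 18 kept immediate-early genes, 11 were above 0 and 7 below, with a median log2 fold change of 0.04; 3 higher and 1 lower had an unadjusted p under 0.05, edgeR and DESeq2 called 1 each and limma-voom 0. Fos, an AP-1 subunit, rose, with 87.8 and 91.2 CPM with the high-fat diet and 58.4 and 61.4 CPM with the control diet (0.58 ± 0.09, SE; edgeR adjusted p = 0.0387). Without control replicates 1 and 2 in turn its adjusted p was 0.173 and 0.105, without high-fat replicates 1 and 2 it was 0.00192 and 0.00953, and by limma-voom it was 0.0652. Ier3 was at 0.71 and Dusp1 at 0.44, and the summed list stood at 1145 and 1347 CPM with the high-fat diet and 1292 and 1249 CPM with the control diet, so the sums overlapped. The part of such a response in the Klf10 and Klf4 values was not tested.

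**Figure D5:**
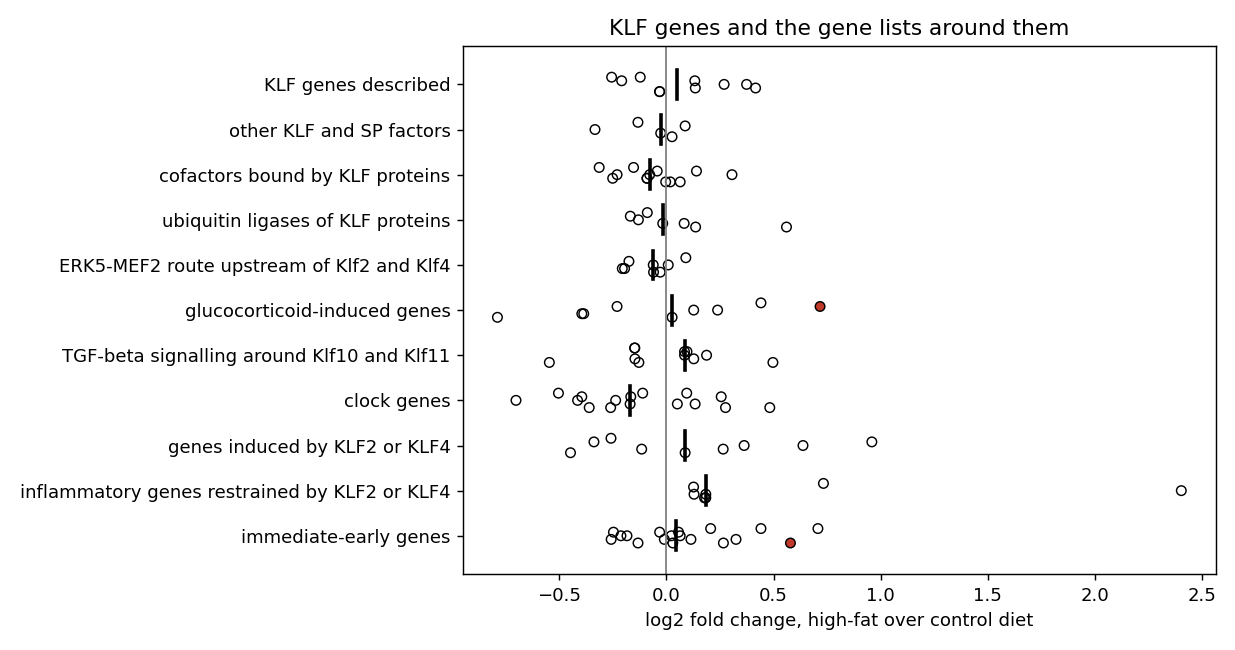
Log2 fold change, high-fat over control diet, of the 10 KLF genes (top row) and of the kept genes of 10 lists around them; each circle is a gene, filled where the edgeR adjusted p was below 0.05, and the bar is the median. Errfi1 and Fos are the filled circles, and the KLF genes lie between -0.26 and 0.42.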

How the data were processed

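Read counts per gene model were deposited by the authors as raw counts, 1 table per library, with no normalization. The submitters' processing notes list build mm9 and the tools TopHat2 2.0.10, HTSeq and Cufflinks 2.1.1; no source used here gives their settings, strand included. The deposited gene models gave coordinates (mm9) and merged exon lengths. The 5 summary lines that name no gene were left out: 37.5% to 48.5% of counted lines aligned at more than 1 place, 13.5% to 15.0% in no gene and 0.664% to 0.823% in more than 1 gene. Replicates differed far beyond sampling noise (chi-square per degree of freedom 34.9 high-fat, 33.8 control), so none looked like a copy.

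Genes were kept by filterByExpr (minimum count 10, minimum total 15) in edgeR 4.0.16. The test was the robust quasi-likelihood test with TMM scaling and diet as the only term (2 residual degrees of freedom), with Benjamini-Hochberg adjustment across every kept gene; each SE came from the fold change and its F statistic. Alternatives used DESeq2 1.42.0 and limma 3.58.1 (R 4.3.3), other scalings and filters, RefSeq genes only, a replicate block, and each library left out on the same genes. The pipeline was tested on simulated data. Members and lists were chosen with earlier results of these data known. Named beside the members are the 3 genes of smallest p and all edgeR calls of each pathway list, and among markers the edgeR calls; Lyz2, Cdh5, Retnlg, Klf8, Klf12, Klf14 and Sp1 are outside that rule and were chosen after their values were seen; 1 gene that the rule names is not reported here. Promoter windows come from RefSeq (GRCm38.p6) and share no coordinates with mm9.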

Additional observations from a re-analysis of the deposited data

How the results depend on the processing

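Of 130 member values under the 13 alternatives, 126 kept their direction and their side of the threshold. For 2 of the others, Klf10 passed (adjusted p 0.0183 by DESeq2 and 0.0198 with no filter on low counts), so 1 member was called in each instead of 0. The remaining 2 changed sign: over the libraries left out in turn, Klf2 ran from -0.38 to 0.25 (positive only without high-fat replicate 1) and Klf9 from -0.083 to 0.017 (positive only without high-fat replicate 2); the cause was not tested. Genes called over all kept genes, 78 as reported, numbered 522 with no filter, 46 with a filter at 1 CPM, 366 by DESeq2 and 28 by limma-voom. Without 1 library the count ran from 3 to 823: 823 without high-fat replicate 1, 452 without high-fat replicate 2, 16 without control replicate 1 and 3 without control replicate 2. Where a diet had 1 library left, that library was assumed to vary like the other diet's pair.

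The labels number the replicates 1 and 2 in both diets without saying that a number is shared, so the numbers were not taken as pairs. Deviations of same-numbered libraries correlated at 0.0888 across genes. With 2 libraries per diet both numbers give the same value, so this cannot decide whether libraries were paired. With a replicate block 113 genes and 0 members were called. Counts per library were lowest for Klf2, Klf4, Klf7 and Klf16, from 124 to 290.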
